A study of Mus musculus with 9 samples.

Results

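NRF2, encoded by Nfe2l2, is a transcription factor that switches on antioxidant and detoxifying enzymes. KEAP1 holds it in the cytoplasm and hands it to the CUL3 ubiquitin ligase for destruction. Oxidants and electrophiles modify KEAP1, so that NRF2 accumulates, pairs with a small MAF protein and binds the antioxidant response element in its targets. Because that control acts on the protein, the Nfe2l2 transcript is only one part of the pathway's state. In brain the response is known mainly from astrocytes and other non-neuronal cells, which supply neurons with precursors of glutathione. The genes described here are Nfe2l2 itself and 9 antioxidant defence genes, Gclc, Gclm, Slc7a11, Gpx4, Txnrd1, Srxn1, Nqo1, Hmox1 and Sod2. They were chosen by name, and all 10 were found among the 27339 genes of the table and passed the filter on low values (a mean of at least 0.5 FPKM), as did 14949 genes in all.

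The RNA came from mouse substantia nigra pars compacta, a midbrain nucleus whose dopamine neurons are lost in Parkinson's disease. There were 3 groups of 3 libraries. The first received MPTP together with a ketogenic diet based on medium-chain triglycerides (MPTP + MCT-KD), the second received MPTP, and the third was the control (Ctrl). MPTP is a toxin that is converted in brain to MPP+, which dopamine neurons take up and which inhibits complex I of the respiratory chain. The 9 libraries include no group with the diet and no MPTP. The labels used give no strain, age, dose or time after the toxin. They also do not tie each library to a separate animal. The p-values therefore describe how far these libraries spread, which may be technical.

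Total counts per library lay between 33187343 and 40001344, and each of the 10 genes had at least 75 counts in every library. Th, the enzyme that limits dopamine synthesis, was present in every library at 48.1 to 108 CPM (counts scaled to a common library size), and Slc6a3, the dopamine transporter, at 86.2 to 182 CPM. Markers of neighbouring tissue varied between libraries. Ttr, the main product of the choroid plexus, reached 1064 CPM in Ctrl library 3. The summed CPM of 8 meningeal fibroblast markers lay between 389 and 700 in the MPTP libraries, against 506 to 1278 in Ctrl. Ptgds made up most of each sum, at 318 to 561 CPM in MPTP and 355 to 1085 CPM in Ctrl. In bulk tissue, fewer cells of a type and less RNA per cell cannot be told apart.

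None of the 10 genes differed between groups beyond the multiple-testing threshold in any of the 3 comparisons. The lowest unadjusted p belonged to Nfe2l2, whose level was below Ctrl in all 3 MPTP libraries, with means of 17.5 ± 0.816 CPM in MPTP and 22.4 ± 1.82 CPM in Ctrl (SD, n = 3 each). The target genes went both ways. Over the 10 genes, the fitted value for MPTP against Ctrl was above 0 for 5 and below 0 for 5. The glutathione enzymes Gclc and Gclm, the peroxidase Gpx4 and the sulfiredoxin Srxn1 had fold changes close to 1 with narrow intervals. Slc7a11 was lowest in the 3 libraries with the lowest meningeal sums and mural cell scores. Their mural cell sums were not the 3 lowest, and the separate parts of these lists were not tested. The difference in Hmox1 came from 1 library.

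The 10 genes spanned a wide range of levels, given here in FPKM (fragments scaled by transcript length and by library size), which allow genes to be compared per length. Gpx4, the selenium enzyme that reduces lipid peroxides in membranes and so prevents ferroptosis, was the most abundant of the 10. It averaged 188 ± 9.84 FPKM in MPTP + MCT-KD, 185 ± 12.9 FPKM in MPTP and 183 ± 6.38 FPKM in Ctrl (SD, n = 3 each). Its mean over the 9 libraries exceeded that of 98.7% of the tested genes, whose median was 7.78 FPKM. Srxn1, which repairs over-oxidised peroxiredoxins, and Sod2, the mitochondrial superoxide dismutase, followed with means over the 9 libraries of 43.9 and 40.1 FPKM. Their ranges of 41.5 to 50.3 and 36.9 to 43.0 FPKM overlapped.

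Txnrd1, the cytosolic thioredoxin reductase, averaged 26.1 FPKM over the 9 libraries. Gclc and Gclm encode the catalytic and the modifier subunit of glutamate-cysteine ligase, the first and limiting step of glutathione synthesis. They averaged 17.6 and 15.1 FPKM, with ranges of 15.3 to 18.7 and 13.9 to 16.8 FPKM that overlapped. Nfe2l2 stood near the middle of all tested genes at a mean of 7.68 FPKM. Slc7a11, the cystine importer that feeds glutathione synthesis, averaged 5.38 FPKM, and its range of 3.82 to 6.68 FPKM overlapped that of Nfe2l2 at 6.56 to 9.49 FPKM. The classical induced genes were lowest. Nqo1, the quinone reductase, averaged 2.65 FPKM, and Hmox1, the inducible haem oxygenase, 2.38 FPKM.

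**Figure D1:**
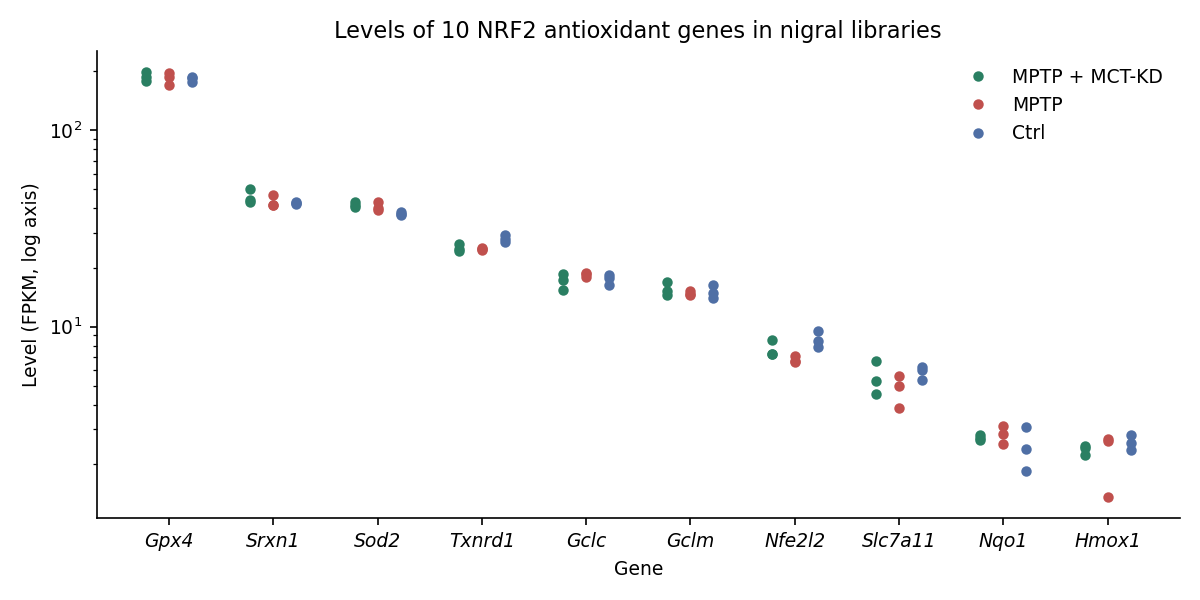
Level of each gene in FPKM (log axis) in the 3 libraries of each group, with genes in order of their mean. Gpx4 lies above 170 FPKM in every library, while Nqo1 and Hmox1 lie at or below 3.10 FPKM.

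The spread between libraries of one group also differed from gene to gene. As a pooled SD of log2 CPM within groups, it was 0.059 for Sod2, 0.084 for Gclm, 0.087 for Txnrd1, 0.089 for Gpx4, 0.093 for Gclc, 0.10 for Srxn1 and 0.11 for Nfe2l2, all below the median of the tested genes, which was 0.12. The values for Nqo1, Slc7a11 and Hmox1 were 0.22, 0.23 and 0.32. Hmox1 and Nqo1 rest on 75 to 163 and 120 to 173 counts, the lowest of the 10 genes, and so carry the largest counting error.

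The antioxidant response element was looked for near the start of each gene as TGACNNNGC on both strands, in RefSeq windows on GRCm38.p6 that reach from 250 bases before to 50 bases after the annotated start. Windows were matched for 8 of the 10 genes (13 windows, since Gpx4 and Txnrd1 have several starts). Hmox1 and Gclc had no entry. The letters were present in 4 of the 13 windows, 1 each of Nfe2l2, Srxn1, Gclm and Txnrd1, and in 12.4% of all 32851 windows. The stretches around these matches are shown because they hold the letters that NRF2 is known to read. They are written 5′ to 3′ on the strand of the gene, with the match in capitals.
Nfe2l2: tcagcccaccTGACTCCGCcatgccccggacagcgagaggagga
Srxn1: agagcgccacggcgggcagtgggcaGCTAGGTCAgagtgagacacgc
Gclm: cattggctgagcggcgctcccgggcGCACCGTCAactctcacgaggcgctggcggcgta
Txnrd1: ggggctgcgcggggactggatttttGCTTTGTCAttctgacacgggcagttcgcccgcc
The stretches lie at chr2:75704870-75704913 on the minus strand for Nfe2l2 and, on the plus strand, at chr2:152105527-152105573 for Srxn1, chr3:122245398-122245456 for Gclm and chr10:82859089-82859147 for Txnrd1. The match begins 240 bases before the start in Nfe2l2, 134 before it in Gclm, 92 before it in Txnrd1 and 28 bases after it in Srxn1. A match is a description of the letters. Slc7a11, Nqo1, Gpx4 and Sod2 had no match in these windows, and elements farther away were not searched.

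The comparison of MPTP with Ctrl asks what the toxin changed. By edgeR's quasi-likelihood test with Benjamini-Hochberg adjustment over all genes, 0 of the 10 genes were called at an adjusted p under 0.05, where 0.0134% of the tested genes were. DESeq2 and limma on log2 FPKM also called 0 of the 10. At an unadjusted p under 0.05 there was 1 of 10, beside 5.36% of the tested genes. The fitted value was above 0 for 5 genes and below 0 for 5, and the median of the 10 was -0.0079 on the log2 scale, while the median over all tested genes was -0.00092.

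Nfe2l2 (ENSMUSG00000015839, chromosome 2, 75675513 to 75704641, GRCm38) was at 17.3, 18.5 and 16.9 CPM in the MPTP libraries, against 22.1, 20.8 and 24.4 CPM in Ctrl. Every MPTP library was lower than every Ctrl library, a pattern that 5.41% of the tested genes had, and 5.14% had the opposite one. Its log2 fold change was -0.35 (SE 0.0985, 95% interval -0.57 to -0.14). Its unadjusted p was 0.0032 and its adjusted p by edgeR's quasi-likelihood test was 0.746, so it is not called. It lay between -0.40 and -0.28 in all 21 alternative settings, and the adjusted p was 0.336 or higher in each. On the authors' FPKM scale it was at 6.56, 7.07 and 6.64 FPKM in MPTP, against 8.43, 7.90 and 9.49 FPKM in Ctrl. These values rest on the same counts, so they add no separate support.

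Of 12 lists of cell type markers, 5 had summed levels that did not overlap between MPTP and Ctrl, 3 lower and 2 higher. The summed CPM of 5 perivascular macrophage markers was 8.03 to 9.95 in MPTP and 10.4 to 12.7 in Ctrl, with 4 of the 5 tested and Pf4 at 0 in MPTP library 2. That of 6 mural cell markers, all tested and none at 0, was 225 to 231 in MPTP and 245 to 247 in Ctrl, but its members went both ways. Acta2, Tagln and Myh11 had log2 fold changes of -0.79, -1.11 and -0.53, while Pdgfrb and Rgs5 had 0.19 and 0.070. The 8 dopamine neuron markers, all tested and none at 0, summed to 580 to 668 CPM in MPTP and 696 to 827 CPM in Ctrl. The sums of 8 astrocyte and 8 microglial markers were higher, at 2983 to 3180 CPM in MPTP against 2902 to 2976 CPM in Ctrl for astrocytes, and at 321.3 to 346 CPM in MPTP against 295 to 320.9 CPM in Ctrl for microglia. Some members went against their sum. The macrophage marker Cd163 had a log2 fold change of 0.16, and the astrocyte markers S1pr1 and Gja1 had -0.094 and -0.0020. The part of these 5 lists in the Nfe2l2 difference was not tested. With the meningeal score as a covariate the log2 fold change was -0.34 (adjusted p = 0.999 by edgeR).

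**Figure D2:**
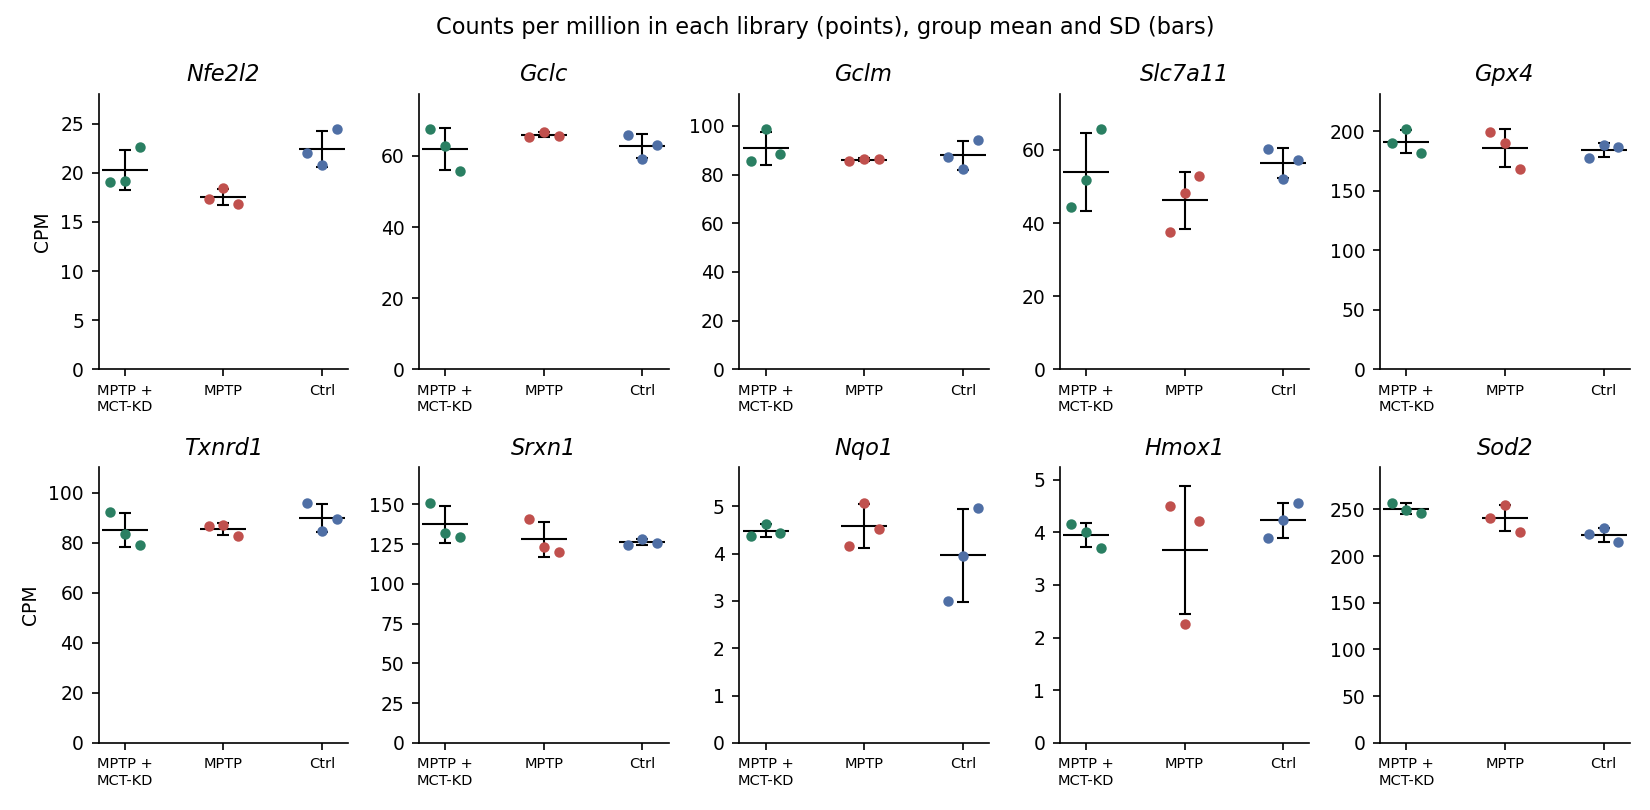
CPM of each gene in every library (points) with the mean and SD of each group (n = 3), each panel on its own axis from 0. The 3 MPTP libraries are below all Ctrl libraries for Nfe2l2, and Hmox1 has 1 low MPTP library at 2.27 CPM.

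The genes of glutathione synthesis did not share a direction. Gclc (chromosome 9, 77754535 to 77794485) was at 65.4, 66.7 and 65.6 CPM in MPTP, against 65.9, 59.2 and 63.1 CPM in Ctrl. Its groups overlapped, and the 95% interval of the fold was 0.945 to 1.17. Gclm (chromosome 3, 122245557 to 122270732) lay within 85.5 and 86.5 CPM in MPTP and within 82.2 and 94.2 CPM in Ctrl, with an interval of 0.889 to 1.08. The MPTP libraries of Gclm sat inside the range of Ctrl, and 1 MPTP library of Gclc lay just above it.

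Slc7a11 (chromosome 3, 49892526 to 50443614) was at 37.6, 48.3 and 52.7 CPM in MPTP, against 60.3, 52.2 and 57.2 CPM in Ctrl. The highest MPTP library lay just above the lowest Ctrl library. The fitted log2 change was -0.29 (SE 0.16, adjusted p = 0.915 by edgeR), with a 95% interval of the fold from 0.634 to 1.05. The 3 libraries with the lowest Slc7a11 level over the whole study, MPTP 1, MPTP + MCT-KD 1 and MPTP 2, were also the 3 with the lowest meningeal sums, at 389, 465 and 400 CPM. The order did not hold over all libraries, since Ctrl 3 had 57.2 CPM of Slc7a11 at a sum of 506 CPM and MPTP + MCT-KD 2 had 51.7 CPM at a sum of 1193 CPM. All 8 meningeal markers were tested and none was at 0 in a library. With the meningeal score as a covariate the log2 fold change of Slc7a11 was -0.087 (adjusted p = 0.999 by edgeR), and without MPTP 1 it was -0.16. The same 3 libraries also had the 3 lowest mural cell scores, at -0.33, -0.23 and -0.26 in the order named. Their mural cell sums, at 231, 216 and 227 CPM, were not the 3 lowest, since MPTP 3 had 225 CPM. No fit held the mural cell score, and the separate parts of these lists in the Slc7a11 level were not tested.

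**Figure D3:**
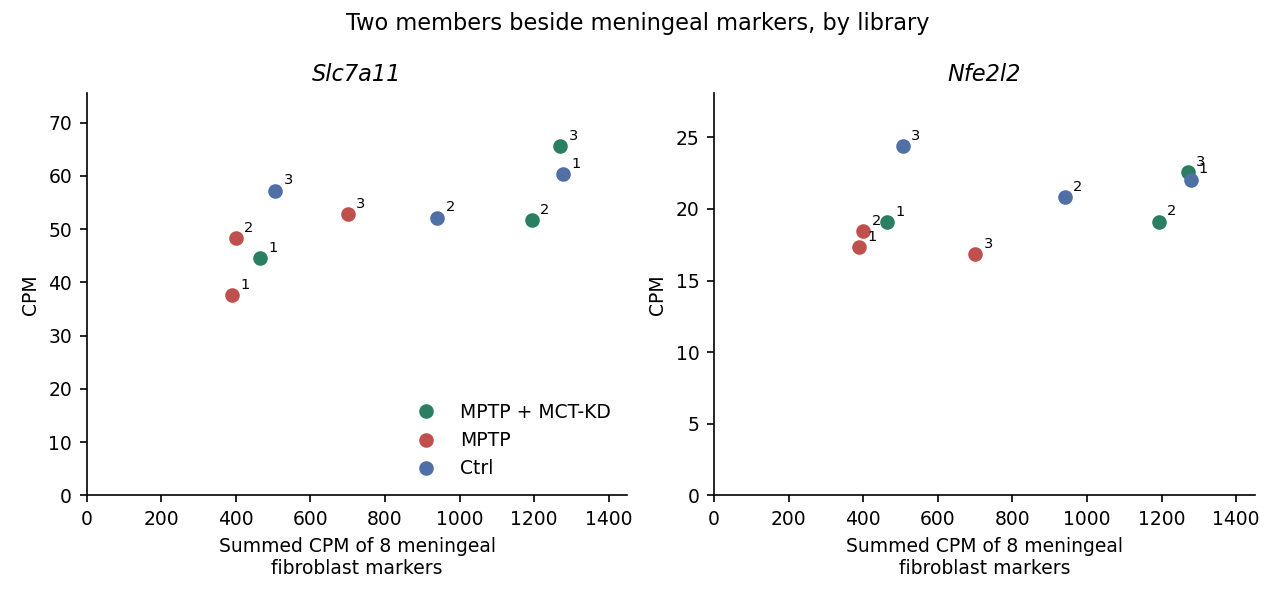
Slc7a11 (left) and Nfe2l2 (right) in CPM against the summed CPM of 8 meningeal fibroblast markers, 1 point per library, labelled with its number. Ptgds makes up most of each sum. The 3 lowest Slc7a11 levels stand at the 3 lowest meningeal sums, and Ctrl library 3, with a sum of 506 CPM, has 57.2 CPM of Slc7a11 and 24.4 CPM of Nfe2l2.

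Gpx4 (chromosome 10, 80047166 to 80056439) was at 200, 190 and 168 CPM in MPTP, against 178, 188 and 187 CPM in Ctrl. The MPTP libraries surrounded the Ctrl libraries, and the 95% interval of the fold was 0.918 to 1.11. A processed copy of this gene, Gpx4-ps2 (chromosome 10, 45875291 to 45876086), is annotated but was not among the identifiers of the table, so exchange of reads with it cannot be judged here. Srxn1 (chromosome 2, 152105516 to 152111376) was at 141, 123 and 120 CPM in MPTP, against 125, 128 and 126 CPM in Ctrl. Only MPTP library 1 lay above Ctrl, and the interval of the fold was 0.913 to 1.13.

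Txnrd1 (chromosome 10, 82833951 to 82897712) gave a different picture in counts and in FPKM. In CPM it was at 86.7, 87.2 and 82.5 in MPTP, against 95.9, 84.6 and 89.4 in Ctrl, and the groups overlapped. In FPKM it was at 24.9, 25.2 and 24.7 in MPTP, against 29.4, 28.0 and 27.0 in Ctrl, and they did not. The share of tested genes whose groups separate in FPKM was not counted. The log2 fold change was -0.074 from counts (adjusted p = 0.947 by edgeR) and -0.17 on the log2(FPKM + 0.1) scale (adjusted p = 0.801 by limma). Neither is a call. The transcript length that a count and its FPKM imply is the same in every library if a fixed length per gene was used. Whether it was is not stated in the labels. For Txnrd1 it was 7.44% to 8.16% above the mean of Ctrl in the MPTP libraries, and it ran from -6.47% to 5.10% around that mean within Ctrl. Its highest value was 1.16 times its lowest over the 9 libraries, against 1.03 times or less for each of the other genes. Txnrd1 has several annotated starts, and their part in this difference was not tested.

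Nqo1 (chromosome 8, 107388225 to 107403206) was at 4.16, 5.07 and 4.53 CPM in MPTP, against 3.0, 3.95 and 4.96 CPM in Ctrl. The groups overlapped, and the Ctrl libraries alone covered nearly the whole range. Its log2 fold change of 0.21 had a 95% interval of the fold from 0.846 to 1.58, and it was 0.046 without Ctrl 1, 0.40 without Ctrl 3 and 0.13 without MPTP 2. Hmox1 (chromosome 8, 75093621 to 75100589) was at 4.50, 2.27 and 4.22 CPM in MPTP, against 3.90, 4.24 and 4.56 CPM in Ctrl. MPTP library 2 alone was low, with 75 counts (95% exact Poisson interval 59.0 to 94.0, counting error only), while the other libraries held 130 to 163. Without that library the log2 fold change was 0.046 in place of -0.21. The same library had the lowest sum of perivascular macrophage markers, 8.03 CPM, with sums of 8.97 and 9.95 CPM in the other MPTP libraries, and the part of these markers in the Hmox1 level was not tested.

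Sod2 (chromosome 17, 13006846 to 13040063) was at 241, 254 and 226 CPM in MPTP, against 224, 230 and 215 CPM in Ctrl. The lowest MPTP library lay inside the Ctrl range. This gave a log2 fold change of 0.11 (SE 0.0515, unadjusted p = 0.0530, adjusted p = 0.904 by edgeR's quasi-likelihood test), with a 95% interval of the fold from 0.999 to 1.17.

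The comparison of MPTP + MCT-KD with MPTP asks what the diet changed in mice that had the toxin. Here too 0 of the 10 genes were called by edgeR's quasi-likelihood test, as were 0% of the tested genes, and DESeq2 and limma called 0 of the 10. At an unadjusted p under 0.05 there were 0 of 10, beside 7.78% of the tested genes. The fitted value was above 0 for 7 genes and below 0 for 3, with a median of 0.069, and the median over all tested genes was 0.00056. The MPTP libraries are shared with the comparison above, so the values of both are given side by side and not related to each other.

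Nfe2l2 was at 19.1, 19.1 and 22.6 CPM in MPTP + MCT-KD, against 17.3, 18.5 and 16.9 CPM in MPTP. All 3 libraries with the diet lay above all 3 without it, as they did for 6.64% of the tested genes, while 7.1% had the opposite pattern and none of the 10 did. Its log2 fold change was 0.21 (SE 0.0988, unadjusted p = 0.0550, adjusted p = 0.652 by edgeR), with a 95% interval of the fold from 0.996 to 1.34. Without MPTP + MCT-KD library 3 it was 0.12. The perivascular macrophage sum did not overlap between the groups either, at 10.3, 12.2 and 17.6 CPM in MPTP + MCT-KD, against 8.97, 8.03 and 9.95 CPM in MPTP, and its part in the Nfe2l2 difference was not tested. The meningeal sum overlapped, at 465, 1193 and 1270 CPM in MPTP + MCT-KD, against 389, 400 and 700 CPM in MPTP. A fit that held the meningeal score as a covariate gave 0.19 for Nfe2l2 (adjusted p = 0.784 by edgeR).

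Slc7a11 was at 44.5, 51.7 and 65.6 CPM in MPTP + MCT-KD, against 37.6, 48.3 and 52.7 CPM in MPTP. The groups overlapped, and the log2 fold change was 0.22 (SE 0.16, adjusted p = 0.764 by edgeR). With the meningeal score as a covariate it was 0.0019, and no fit held the mural cell score. It was 0.057 without MPTP + MCT-KD 3, 0.096 without MPTP 1 and 0.34 without MPTP + MCT-KD 1. Srxn1 was at 151, 132 and 129 CPM in MPTP + MCT-KD, against 141, 123 and 120 CPM in MPTP. Each diet library stood above the MPTP library with its number, but the groups overlapped, and the interval of the fold was 0.966 to 1.19. Its log2 fold change of 0.10 was 0.029 without MPTP + MCT-KD 1, 0.057 without MPTP 3 and 0.18 without MPTP 1. The meningeal score as a covariate gave 0.20 for Srxn1 (adjusted p = 0.672 by edgeR), the highest of the 21 alternatives.

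The other members of this comparison lay close together. The 95% interval of the fold was 0.846 to 1.04 for Gclc, 0.957 to 1.16 for Gclm, 0.900 to 1.10 for Txnrd1, 0.935 to 1.13 for Gpx4 and 0.965 to 1.13 for Sod2. For none of these 5 did the groups separate. The intervals of Nqo1 and Hmox1, 0.716 to 1.34 and 0.749 to 1.55, leave room for larger differences.

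**Figure D4:**
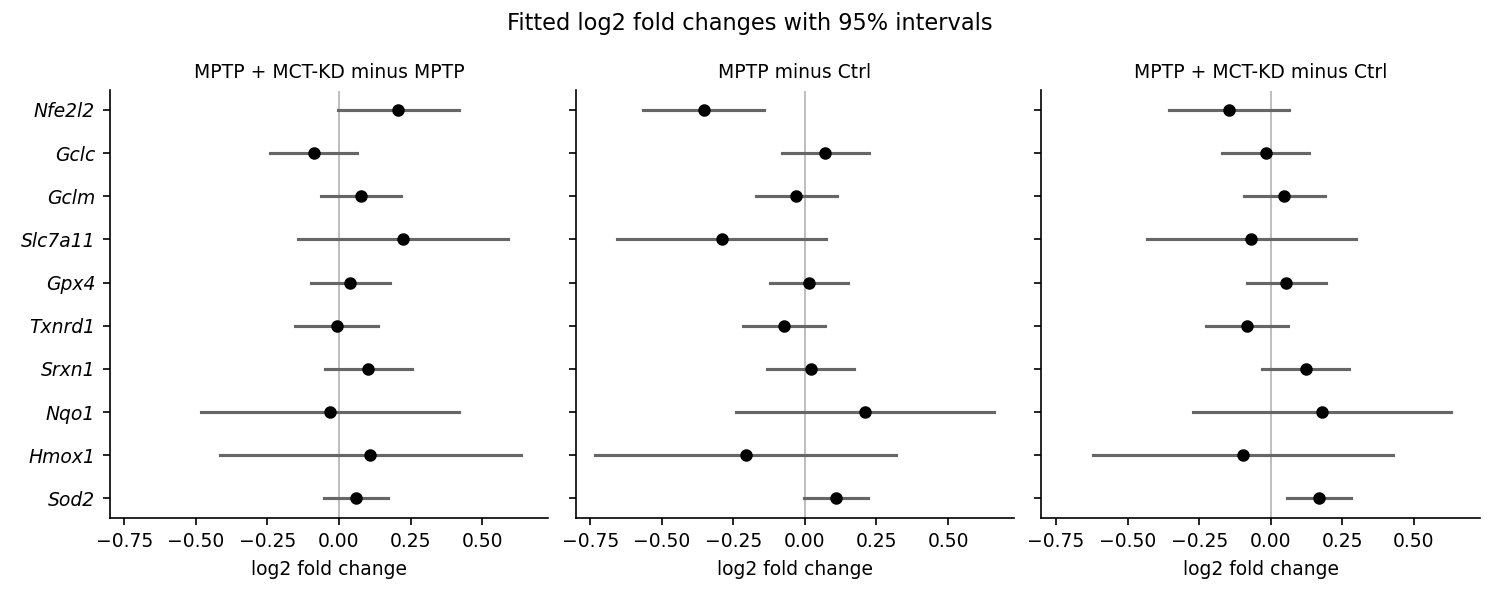
Log2 fold change of each gene with its 95% interval from edgeR's quasi-likelihood fit, for MPTP + MCT-KD minus MPTP, MPTP minus Ctrl and MPTP + MCT-KD minus Ctrl. The interval lies wholly below 0 for Nfe2l2 in MPTP minus Ctrl (-0.57 to -0.14) and wholly above 0 for Sod2 in MPTP + MCT-KD minus Ctrl (0.058 to 0.28), and neither passed adjustment over all genes.

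The comparison of MPTP + MCT-KD with Ctrl gives the toxin and the diet together. Of the 10 genes, 0 were called by edgeR's quasi-likelihood test, as were 0% of the tested genes, and DESeq2 and limma called 0 of the 10. At an unadjusted p under 0.05 there was 1 of 10, beside 6.73% of the tested genes. The fitted value was above 0 for 5 genes and below 0 for 5, with a median of 0.015, and the median over all tested genes was -0.0015.

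Sod2 was at 257, 250 and 246 CPM in MPTP + MCT-KD, against 224, 230 and 215 CPM in Ctrl. All 3 libraries with toxin and diet lay above all 3 Ctrl libraries, as they did for 6.28% of the tested genes, while 6.4% had the opposite pattern and none of the 10 did. Its log2 fold change was 0.17 (SE 0.0515, 95% interval 0.058 to 0.28, unadjusted p = 0.0057, adjusted p = 0.740 by edgeR). It lay between 0.14 and 0.19 in all 21 alternative settings, with an adjusted p of 0.340 or higher. The summed markers of 4 cell types did not overlap between these groups, 3 glial sums that were higher and the dopamine neuron sum that was lower. The 8 astrocyte markers summed to 3074 to 3280 CPM in MPTP + MCT-KD, against 2902 to 2976 CPM in Ctrl, and the 8 microglial markers to 340 to 349 CPM, against 295 to 321 CPM. Of the astrocyte markers, S1pr1, Slc1a3 and Aldh1l1 had log2 fold changes of -0.13, -0.062 and -0.00061, and the others were above 0. The most abundant of them, Slc1a2, averaged 1590 CPM in MPTP + MCT-KD and 1462 CPM in Ctrl. The 8 oligodendrocyte markers summed to 12832 to 14120 CPM in MPTP + MCT-KD, against 10060 to 12262 CPM in Ctrl. The 8 dopamine neuron markers summed to 551 to 680 CPM in MPTP + MCT-KD, against 696 to 827 CPM in Ctrl. All markers of these 4 lists were tested and none was at 0, and their part in the Sod2 difference was not tested.

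Srxn1 was the other member whose groups did not overlap, at 151, 132 and 129 CPM in MPTP + MCT-KD, against 125, 128 and 126 CPM in Ctrl. The lowest library with toxin and diet exceeded the highest Ctrl library only narrowly, and the log2 fold change was 0.12 (SE 0.0705, adjusted p = 0.788 by edgeR), or 0.050 without MPTP + MCT-KD 1. Nfe2l2 overlapped here, at 19.1, 19.1 and 22.6 CPM in MPTP + MCT-KD, against 22.1, 20.8 and 24.4 CPM in Ctrl (a fitted change of -0.15 on the log2 scale, with an adjusted p of 0.830 by edgeR). Txnrd1 was at 92.4, 83.4 and 79.2 CPM in MPTP + MCT-KD, against 95.9, 84.6 and 89.4 CPM in Ctrl. On the FPKM scale its 3 libraries, at 26.2, 24.9 and 24.4 FPKM, were again all below Ctrl. The transcript length implied in these libraries was 8.95%, 3.90% and 0.694% above the mean of Ctrl. The log2 fold changes of the remaining 6 genes, Slc7a11, Gclc, Gclm, Gpx4, Nqo1 and Hmox1, lay between -0.097 and 0.18, with overlapping groups.

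The wider pathway was described with 86 further genes in 7 lists by role, of which 84 were tested (Adh7 and Osgin1 were too low). By edgeR's quasi-likelihood test none of the 84 passed over all genes in any comparison, nor by DESeq2 or limma. At an unadjusted p under 0.05 there were 3 of 84 in MPTP + MCT-KD against MPTP, beside 7.78% of all tested genes, 11 of 84 in MPTP against Ctrl, beside 5.36%, and 8 of 84 in MPTP + MCT-KD against Ctrl, beside 6.73%. The median log2 fold changes over the 84 were 0.020, -0.0082 and 0.0062 in the same order of comparisons.

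The genes that hold or partner NRF2 were the 12 of the first list. Keap1, the sensor that marks NRF2 for destruction, was at 76.3, 79.2 and 75.1 CPM in MPTP, against 74.7, 70.6 and 70.1 CPM in Ctrl (adjusted p = 0.913 by edgeR). All 3 MPTP libraries were above Ctrl for Keap1, by a log2 fold change of 0.098, a pattern that 5.14% of the tested genes had. Of the 12 genes, 2 had the opposite pattern, as had 5.41% of the tested genes. Maff, which encodes a small MAF protein, was at 1.53, 2.51 and 1.91 CPM in MPTP, against 3.52, 2.70 and 3.24 CPM in Ctrl. Its log2 fold change was -0.67, and that of Gsk3b was -0.056 (adjusted p = 0.893 and 0.935 by edgeR). Bach1, the repressor that competes for the same elements, averaged 21.7 ± 2.22 CPM in MPTP and 22.1 ± 2.06 CPM in Ctrl (SD, n = 3 each). Sqstm1, an autophagy adaptor that binds KEAP1, averaged 469 ± 22.1 CPM in MPTP + MCT-KD, 462 ± 9.63 CPM in MPTP and 479 ± 12.1 CPM in Ctrl. Keap1, Bach1, Maff and Gsk3b were picked after their values were seen. Keap1 was named because its product binds NRF2, and Bach1 because its product competes for the same elements.

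In the glutathione list, 8 of 19 genes were above MPTP in the diet group, and 12 of 19 were above Ctrl in MPTP. Its most abundant member, the glutathione transferase gene Gstm1, averaged 168 ± 1.96 CPM in MPTP + MCT-KD, 175 ± 11.01 CPM in MPTP and 170 ± 8.82 CPM in Ctrl. In the thioredoxin and peroxiredoxin list, 11 of 16 were above MPTP in the diet group and 7 of 16 above Ctrl in MPTP. Its most abundant member, Sesn3, a stress-induced sestrin, averaged 207 ± 4.35 CPM in MPTP + MCT-KD, 205 ± 10.8 CPM in MPTP and 222 ± 8.37 CPM in Ctrl. All 3 libraries with toxin and diet were below Ctrl for Sesn3, a pattern that 6.4% of the tested genes had. Its log2 fold change there was -0.097 (unadjusted p = 0.0791, adjusted p = 0.772 by edgeR). Of the MPTP libraries 1 overlapped Ctrl (log2 fold change -0.12 in MPTP against Ctrl, unadjusted p = 0.0415, adjusted p = 0.904 by edgeR). Prdx2, a peroxiredoxin that removes hydrogen peroxide, averaged 172 ± 7.03, 172 ± 9.46 and 170 ± 1.51 CPM in the groups in that order. The counts of both lists lie near an even split.

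Of the 8 genes that supply NADPH, 4 were above Ctrl in MPTP and 3 in MPTP + MCT-KD. Tkt, the transketolase of the pentose phosphate pathway, averaged 184 ± 2.88 CPM in MPTP + MCT-KD, 197 ± 5.90 CPM in MPTP and 194 ± 2.37 CPM in Ctrl. Fth1, the ferritin heavy chain that stores iron, was the most abundant gene of the lists at 2480 ± 186, 2424 ± 238 and 2232 ± 151 CPM in the same order, and the spreads overlapped. Of the iron and ferroptosis list 5 of 9 were above Ctrl in MPTP. Sod1, the cytosolic superoxide dismutase, averaged 123 ± 10.7 CPM in MPTP + MCT-KD, 120 ± 8.30 CPM in MPTP and 125 ± 0.344 CPM in Ctrl. Its list had 7 of 8 genes above MPTP in the diet group, with a median of 0.097 on the log2 scale, and 3 of 8 above Ctrl in MPTP. Of the 12 tested quinone and carbonyl genes 5 were above Ctrl in MPTP. Aldh3a2, a fatty aldehyde dehydrogenase and the most abundant of them, averaged 66.2 ± 2.36 CPM in MPTP + MCT-KD, 63.7 ± 0.735 CPM in MPTP and 58.3 ± 0.760 CPM in Ctrl. Hmox2, the constitutive haem oxygenase, stood at 51.3 ± 1.14 CPM (MPTP) and 54.4 ± 1.65 CPM (Ctrl).

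**Figure D5:**
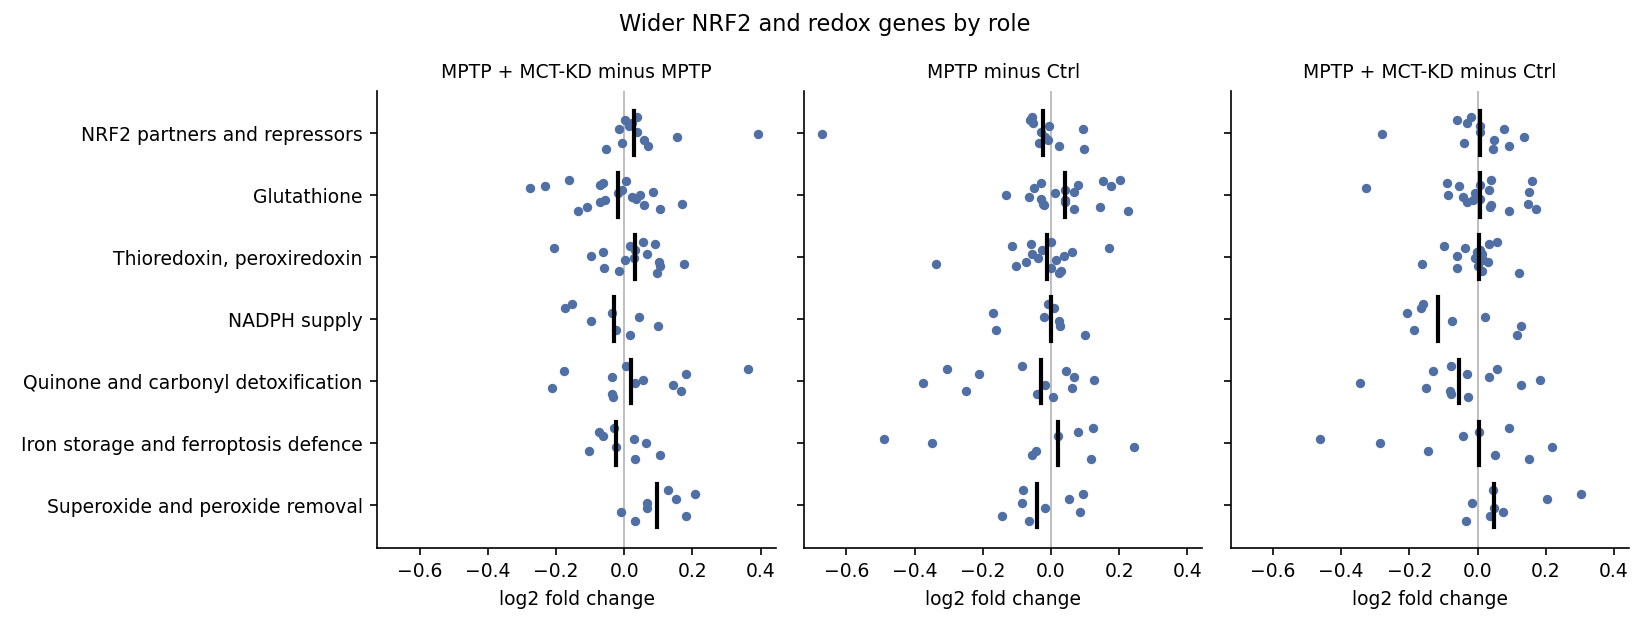
Log2 fold changes of the 84 tested pathway genes in 7 lists by role (points, 1 per gene, spread vertically for legibility) with the median of each list (bars), for the 3 comparisons. The medians lie between -0.12 and 0.097, and none of the genes passed adjustment over all genes.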

How the data were processed

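The authors deposited 1 table of genes with raw counts and FPKM for each library, per the file headers. The submitters' processing notes name mm10 (GRCm38) as the build. No aligner, counter, annotation or strand setting was found in the labels or headers, so reads of genes that overlap Nfe2l2, Gclm, Txnrd1 or Slc7a11 cannot be separated from theirs. Libraries were grouped by title, and 10 lines that name no gene were left out.

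Counts were tested with edgeR 4.0.16 in R 4.3.3 (quasi-likelihood, robust, TMM scaling), with all 9 libraries in 1 model, over the 14949 genes whose FPKM averaged 0.5 or more. P-values were adjusted over these genes by Benjamini-Hochberg, with calls under 0.05, and intervals are 95% intervals of the fit. Alternatives used DESeq2 1.42.0 and limma 3.58.1, other scalings, filters and covariates, and removal of each library. The fits were tested on simulated data. Scores are mean log2 CPM with a prior count of 2, each gene centred on its mean over the 9 libraries. Coordinates come from GENCODE M21 on GRCm38. The genes, lists and rule for naming genes (all 10 members, and from each list up to 3 of its most abundant genes) were chosen with earlier results of these data known. Same-numbered libraries deviated together between MPTP + MCT-KD and MPTP (correlations 0.107 to 0.182), a hint from the data alone, and a replicate block changed no call there.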

Additional observations from a re-analysis of the deposited data

How the results depend on the processing

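None of the 10 genes was called in any comparison under any of the 21 alternatives, 2 of which (the choroid plexus covariate, and the removal of Ctrl 3 with MPTP 1) were chosen after seeing the data. Of 630 recomputed log2 fold changes 28 changed sign, 1 of them beyond 0.1 in size. The cause was not tested. Depth and spread limit Hmox1 and Nqo1 most, with 75 to 163 and 120 to 173 counts per library and intervals of the fold of MPTP over Ctrl from 0.602 to 1.25 and 0.846 to 1.58.

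In MPTP + MCT-KD against MPTP, Txnrd1 (-0.0084) was 0.013 by limma at either pseudocount, 0.053 with the meningeal covariate, 0.0021 without Ctrl 3 and MPTP 1, and -0.073 to 0.039 with 1 library left out. Nqo1 was 0.043 with the meningeal covariate. With 1 library left out Nqo1 ranged over -0.095 to 0.048, Hmox1 over -0.14 to 0.29 and Gpx4 over -0.028 to 0.096. In MPTP against Ctrl, Srxn1 and Gpx4 were -0.079 and -0.048 with the meningeal covariate, -0.056 and -0.030 without Ctrl 3 and MPTP 1, and -0.051 to 0.067 and -0.038 to 0.084 with 1 library left out. Gclm was 0.017 with the choroid plexus covariate, 0.027 without Ctrl 3 and MPTP 1, and -0.076 to 0.023 with 1 left out, and Hmox1 was -0.38 to 0.046. In MPTP + MCT-KD against Ctrl, Gclc was 0.0014 with the choroid plexus covariate and -0.083 to 0.055 with 1 left out, Slc7a11 -0.23 to 0.053 and Gclm -0.0099 to 0.10.

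The counts of all genes called, 0 in MPTP + MCT-KD against MPTP, 2 in MPTP against Ctrl and 0 in MPTP + MCT-KD against Ctrl, were 19, 14 and 16 with DESeq2. In MPTP against Ctrl they were 0 by limma at either pseudocount, without robust moderation and with the choroid plexus covariate, and 1 with the meningeal covariate. Without Ctrl 3 and MPTP 1 they were 1 in MPTP + MCT-KD against MPTP and 1 in MPTP against Ctrl. In MPTP + MCT-KD against Ctrl they were 1 with no filter and 4 with only the 2 groups compared. With 1 library left out they ranged over 0 to 1, 0 to 4 and 0 to 4 in the 3 comparisons. The first was 1 without MPTP 1 or MPTP 2. The second was 4 without MPTP + MCT-KD 1, 1 without Ctrl 1, MPTP 2 or MPTP + MCT-KD 3, and 0 without Ctrl 2, Ctrl 3 or MPTP 3. The third was 4 without MPTP 3 and 1 without MPTP 2 or MPTP + MCT-KD 1. The replicate block gave 0, 3 and 5. For the comparisons with Ctrl the shared numbers were not shown to pair libraries, since same-numbered libraries correlated at -0.151 to 0.0783.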

Other observations

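Among the 84 wider pathway genes, 5 had both MPTP groups on the same side of Ctrl with no overlap, as had 346 of the 14949 tested genes (2.31%). They were picked after their values were seen, the contrasts share the Ctrl libraries, and none of the 5 passed over all genes. Aifm2, which encodes a ubiquinone reductase that protects membranes from lipid peroxidation beside GPX4, was at 13.1, 11.3 and 12.4 CPM in MPTP + MCT-KD and 11.2, 12.3 and 11.6 CPM in MPTP, against 15.4, 14.3 and 15.2 CPM in Ctrl. Its log2 fold changes from Ctrl were -0.29 and -0.35 (adjusted p = 0.740 and 0.868 by edgeR). Ephx1, the microsomal epoxide hydrolase, was at 15.6, 17.4 and 17.6 CPM in MPTP + MCT-KD and 15.1, 16.0 and 18.5 CPM in MPTP, against 20.4, 19.2 and 24.7 CPM in Ctrl. Aldh3a2, which oxidises fatty aldehydes, lay above Ctrl in both, at 64.1, 68.8 and 65.7 CPM in MPTP + MCT-KD and 63.0, 64.4 and 63.7 CPM in MPTP, against 57.5, 58.8 and 58.7 CPM in Ctrl.

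The other 2 genes encode the 2 dehydrogenases of the oxidative pentose phosphate pathway, which make NADPH, and they lay on opposite sides of Ctrl. G6pdx, the first enzyme, was at 59.6, 65.2 and 59.9 CPM in MPTP + MCT-KD and 60.4, 61.9 and 60.3 CPM in MPTP, against 58.7, 58.8 and 53.0 CPM in Ctrl. Pgd, 6-phosphogluconate dehydrogenase, was at 34.2, 36.0 and 34.3 CPM in MPTP + MCT-KD and 37.1, 33.6 and 35.6 CPM in MPTP, against 39.5, 41.0 and 38.3 CPM in Ctrl. The log2 fold changes from Ctrl were 0.12 and 0.099 for G6pdx and -0.19 and -0.16 for Pgd (adjusted p = 0.783, 0.922, 0.740 and 0.893 by edgeR).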
